A study of Rattus norvegicus with 22 samples.

Results

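Cocaine was set against no cocaine across the 12 RNA libraries of prefrontal cortex in a series of 22 samples. The 6 cocaine-treated libraries were 3 labelled cocaine and 3 labelled WIN+cocaine, and the 6 others were 3 labelled control and 3 labelled WIN. WIN exposure entered the comparison as a covariate, so that each cocaine-treated library was read against libraries with the same WIN history. All animals were male Sprague-Dawley rats, and every library came from the prefrontal cortex. The series title places the cannabinoid in adolescence and the cocaine later; doses, ages and the time of dissection are not stated there or in the labels. The control group is labelled only as control, without a vehicle. The other samples, 6 RNA libraries of the nucleus accumbens and 4 ATAC libraries, were not analysed here. The labels do not say whether the 3 libraries of a group came from separate animals, so each p-value refers to the variation among these particular libraries, part of which may be technical.

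Cocaine blocks the transporters that clear dopamine, noradrenaline and serotonin from the synapse. The prefrontal cortex, which governs planning and the control of drug seeking, receives dopamine fibres from the ventral tegmental area, and cocaine is known to alter transcription there. WIN is the short name of a synthetic agonist of cannabinoid receptors; cannabinoid receptor 1 sits on many cortical axon terminals and restrains transmitter release. Whether cocaine moves the same genes in animals that met a cannabinoid earlier is the question that the comparison within both WIN histories addresses.

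Of the 29663 genes listed, 15326 had an FPKM (fragments per kilobase of gene, scaled to the size of the library) of at least 1 in at least 3 of the 12 libraries and were tested. Whole reads were recovered from the FPKM values as the smallest whole numbers that fit each gene. Where the reads of a gene share a common factor over all libraries, they are understated. The recovered reads summed to 22106025 to 27101698 in the cocaine-treated libraries, against 20852442 to 27677077 in the others. The deposited table identifies genes by ID alone, and none of its IDs matched the names at hand, so the gene lists written by symbol and the markers of cortical cell types were not analysed here. In whole tissue, fewer cells of a type and less RNA per cell cannot be told apart.

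WIN replicate 3 stood apart. When 500 genes in each direction were picked as most different between cocaine and no cocaine in the other 11 libraries, WIN replicate 3 lay on the cocaine side, with a score of 0.19 on the log2(FPKM + 1) scale, where 0 is the mean of the 4 group means without that library. The score averages the deviation of the higher genes and the deviation of the lower genes with its sign turned. The other libraries without cocaine lay at -0.11, -0.24 and -0.09 for control replicates 1 to 3 and at -0.22 and -0.15 for WIN replicates 1 and 2. Its depth, 24754334 reads, was within the range of the others. Library weights estimated from the residual spread gave it 0.26, the lowest of the 12, against 2.99 for WIN replicate 1, the highest. Results are therefore given with WIN replicate 3 and, where its absence moves them, without it. The library was recognised from its expression values and not from its labels, so a value without it is a description of the other 11 libraries. It is called by its label throughout; whether the label is right was not tested, and each count with or without this library carries that doubt.

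Many genes had a small unadjusted p in the cocaine main effect, and none passed the threshold after adjustment. In limma with WIN as a covariate, 0 of 15326 genes (0%) had an adjusted p under 0.05; the smallest adjusted p was 0.0999. Limma voom on the recovered reads also called 0, with a smallest adjusted p of 0.0907. An adjusted p under 0.10 was reached by 317 genes (2.07%), 269 higher (1.76%) and 48 lower (0.313%), all close to that edge. The unadjusted p was under 0.05 in 3637 genes (23.7%), beside 766 expected by chance. Of these, 2020 (13.2%) were higher and 1617 (10.6%) lower in the cocaine-treated libraries. Genes share the deviations of each library, so the excess over 766 does not count changed genes. The WIN term of the same fit had 319 genes (2.08%) at that p with all libraries, under the 766 of chance, but 1774 without WIN replicate 3 and 1705 with library weights, over it.

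**Figure D1:**
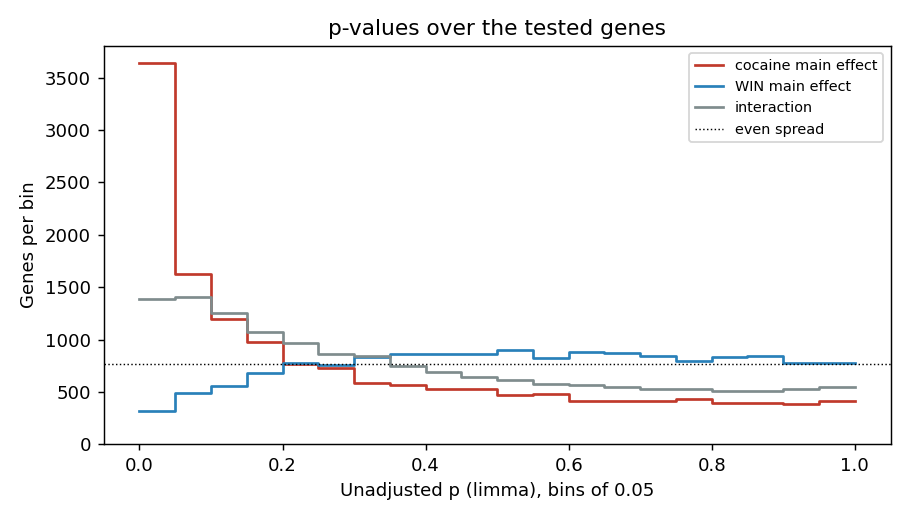
Number of tested genes (vertical axis) in each bin of unadjusted limma p (horizontal axis, bins of 0.05) for the cocaine main effect, the WIN main effect and their interaction. The cocaine line starts at 3637 genes in the first bin, far above the even spread of 766 drawn as a dotted line, whereas the WIN line, drawn with all 12 libraries, starts at 319; without WIN replicate 3 it would start at 1774.

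The differences were small. Among the 3637 genes the median absolute log2 difference was 0.23, and 51 genes were more than 1.5-fold higher and 22 more than 1.5-fold lower on the log2(FPKM + 1) scale. These were 95 and 33 without WIN replicate 3, 85 and 33 with library weights, and 71 and 40 without WIN+cocaine replicate 2. With voom, which adds no constant of 1 to low values, they were 118 and 54. Over all tested genes the middle 50% of log2 differences ran from -0.12 to 0.11, around a median of -0.01, and the median SE of a gene was 0.08.

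The counts depended on WIN replicate 3. Without it, limma called 3567 genes (23.3%) at an adjusted p under 0.05, 1757 higher and 1810 lower, and the smallest adjusted p was 0.000495. With all 12 libraries and library weights it called 3879 (25.3%), 2011 higher and 1868 lower. The settings shared 3253 genes, which is 83.9% of the calls with weights and 91.2% of the calls without that library. Both settings use the 11 other libraries and lessen or remove the part of WIN replicate 3, so this overlap adds no separate support. In neither setting did the interaction call a gene. Without WIN replicate 3, 5741 genes had an unadjusted p under 0.05; with weights 6047 did, and without control replicate 2, 2424 did. The lean towards higher genes also moved: it was 2020 against 1617 with all libraries, 2899 against 3148 with weights and 2697 against 3044 without WIN replicate 3. Scaling moved it too: with all 12 libraries it was 1911 against 1877 after quantile normalization and 2120 against 1569 after median ratio rescaling. Leaving out any 1 of the 11 other libraries left the count of called genes at 0.

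**Figure D2:**
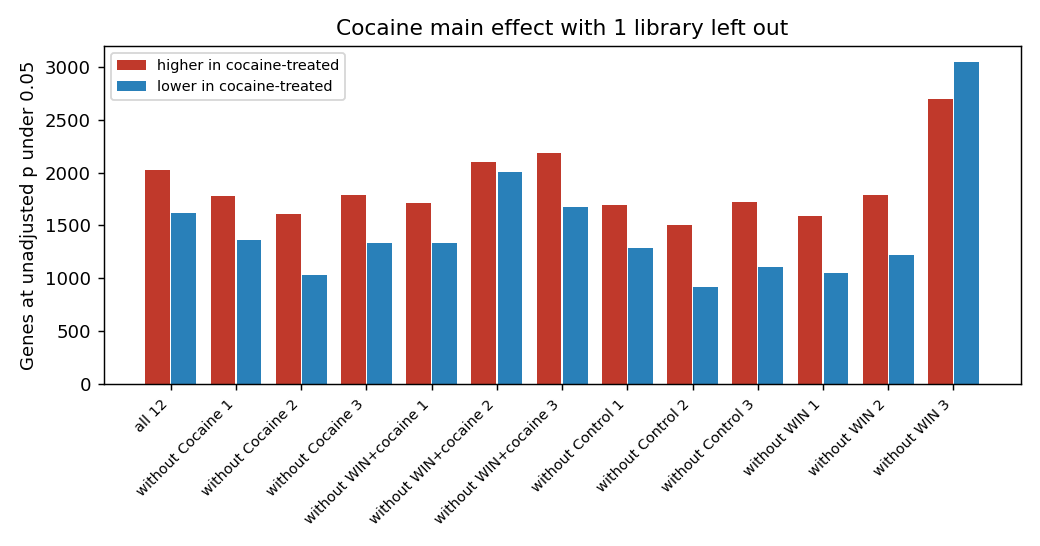
Genes at an unadjusted p under 0.05 in the cocaine main effect (vertical axis), higher and lower in the cocaine-treated libraries, with all 12 libraries and with each library left out in turn (horizontal axis). Without WIN replicate 3 there were 2697 higher and 3044 lower genes, more than with any other library left out; without control replicate 2 there were 1509 and 915.

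The 4 genes named here have the smallest p in each direction among those with the same sign of change under both WIN histories. They rank 1, 3, 2 and 17 by p among all tested genes. Because they were chosen for this difference, their p-values and the distance between their groups describe the choice as well as the genes.

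ENSRNOG00000042717 was the first by p and was higher with cocaine. Its FPKM was 12.9, 13.5 and 14.2 in cocaine and 13.2, 13.4 and 14.7 in WIN+cocaine, against 10.2, 10.2 and 10.96 in control and 9.14, 10.8 and 10.3 in WIN. All 6 cocaine-treated libraries lay above all 6 others, and the WIN replicates, replicate 3 included, lay with the controls. The group means were 13.5 ± 0.620 in cocaine and 13.7 ± 0.828 in WIN+cocaine, against 10.4 ± 0.452 in control and 10.1 ± 0.870 in WIN (SD, n = 3 each). The log2 difference was 0.38 with an SE of 0.06, or 1.30-fold, with an adjusted p of 0.0999 in limma. The difference was 0.41 with WIN and 0.35 without, and the interaction, 0.06 with an SE of 0.11, had an adjusted p of 0.821 in limma. Between 241 and 431 reads per library stood behind these values, over an implied gene length of 1134 bp.

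ENSRNOG00000020429 was also higher with cocaine. It had FPKM values of 24.3, 26.2 and 23.5 in cocaine and 25.7, 20.9 and 23.0 in WIN+cocaine, against 17.1, 16.9 and 18.6 in control and 19.99, 17.7 and 17.7 in WIN. The lowest cocaine-treated library, WIN+cocaine replicate 2 at 20.9, lay just above the highest other library, WIN replicate 1 at 19.99. The log2 difference was 0.39 with an SE of 0.06 and an adjusted p of 0.0999 in limma. It was 0.31 with WIN and 0.47 without, and the interaction, -0.16 with an SE of 0.12, had an adjusted p of 0.615 in limma.

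ENSRNOG00000027502 was a gene of low level and was lower with cocaine. Its FPKM was 3.87, 3.44 and 4.18 in cocaine and 3.94, 3.52 and 3.72 in WIN+cocaine, against 5.16, 5.44 and 4.84 in control and 5.15, 5.39 and 5.06 in WIN. The highest cocaine-treated value, 4.18, lay under the lowest other value, 4.84. The log2 difference was -0.37 with an SE of 0.06 and an adjusted p of 0.0999 in limma, at -0.39 with WIN and -0.35 without. It rests on 59 to 109 reads per library, the fewest of the 4 genes, over an implied length of 758 bp.

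ENSRNOG00000019105 had the deepest coverage, 4063 to 6148 reads per library over an implied 6621 bp. It had FPKM values of 26.5, 26.4 and 26.6 in cocaine and 27.5, 28.7 and 28.3 in WIN+cocaine, against 31.7, 34.2 and 33.0 in control and 33.5, 32.4 and 29.9 in WIN. WIN replicate 3 was the lowest of the libraries without cocaine and lay nearest to WIN+cocaine. The log2 difference was -0.24 with an SE of 0.05 and an adjusted p of 0.0999 in limma. It was -0.17 with WIN and -0.30 without.

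In each of the 4 genes an exact two-sided permutation test that exchanged cocaine labels within each WIN history gave p = 0.005, the smallest that its 400 arrangements allow. Their complete separation, on which the choice by p drew, fixes that value, so it adds no support. The WIN term was near 0 in all 4, from -0.01 to 0.02 on the log2 scale. None of the 4 changed sign in any of 22 other settings. Each had an adjusted p under 0.05 in limma with library weights and without WIN replicate 3, and passed at the looser threshold of 0.10; in the other 19 settings none passed 0.05.

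**Figure D3:**
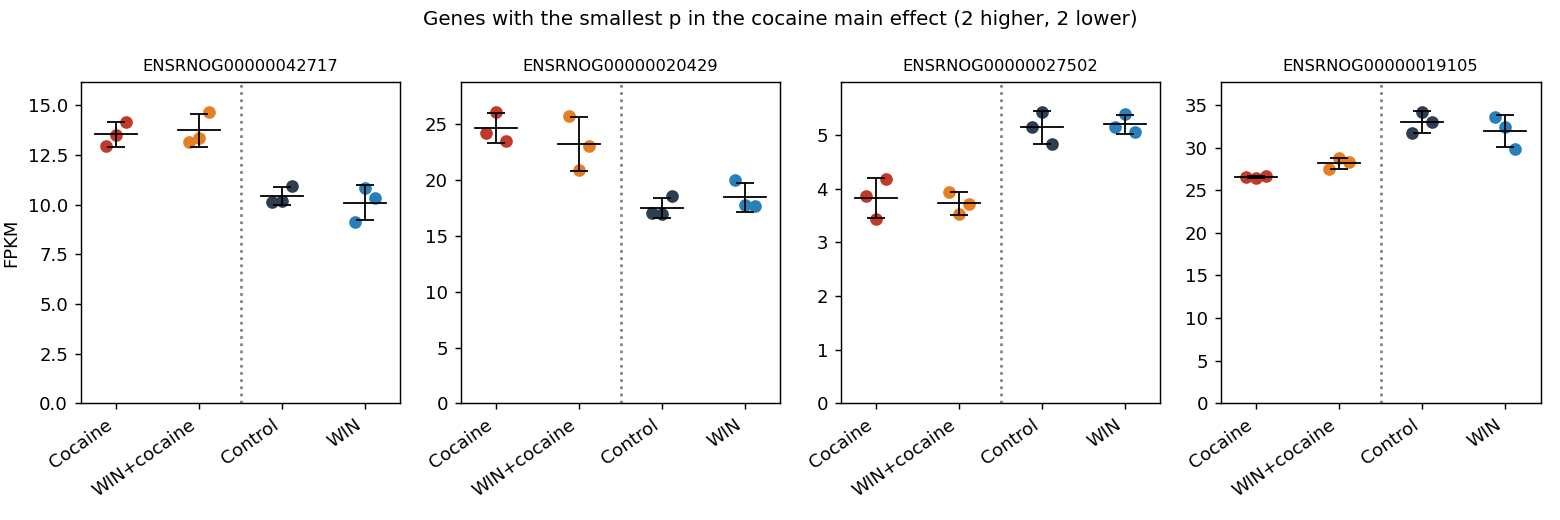
FPKM (vertical axis, from 0) of the 4 named genes in the 12 libraries by group (horizontal axis), cocaine-treated groups left of the dotted line. Points are libraries, horizontal lines group means and bars the SD of 3 libraries; in each gene the 6 cocaine-treated values lie beyond all 6 others.

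Genes separated in the same direction under both WIN histories outnumbered those separated in opposite directions. The change with WIN (WIN+cocaine minus WIN) and the change without it (cocaine minus control) share no library. In 208 genes (1.36%) the 3 cocaine-treated values lay above the 3 others under both histories, and in 77 (0.502%) they lay below. Rescaling by median ratios gave 163 above and 94 below, and quantile normalization 137 and 105. With the values as deposited these are together 285 genes (1.86%), beside 50 (0.326%) whose values did not overlap under either history but differed in opposite directions. The 50 were 15 genes higher without WIN and lower with it, and 35 the other way. With WIN 1143 genes (7.46%) did not overlap, 692 higher and 451 lower, against 6132 (40%) without WIN, 2838 higher and 3294 lower. Chance alone separates 3 values from 3 others in some genes. That share was not computed, so the 1143 genes with WIN are not shown to exceed it. The overlap expected of unrelated histories was not computed either, so neither the 208 nor the 77 is shown to exceed it. At an unadjusted p under 0.05 in limma there were 576 genes (3.76%) with WIN, against 4768 (31.1%) without WIN. The 576 lay under the 766 expected by chance. Leaving out WIN replicate 3 gave 2261 with WIN and library weights gave 2115, whereas leaving out any other single library gave 359 to 946. With all 12 libraries, the p-values with and without WIN were both under 0.05 in 189 genes higher and 42 genes lower under both histories. Of those with opposite signs, 13 were higher with WIN and lower without, and 4 were lower with WIN and higher without.

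The 208 higher and 77 lower genes had modest sizes. Their absolute log2 difference had a median of 0.21 in the higher genes and 0.24 in the lower genes, and the largest values were 0.92 and 0.54. Only 5 of the 208, and 0 of the 77, exceeded 1.5-fold. Of the 208, 205 had an unadjusted p under 0.05 in the main effect, and of the 77, 74 did; the same values made both counts. The stricter separation of all 6 cocaine-treated libraries from all 6 others held in 142 genes above (0.927%) and 39 below (0.254%). Rescaling the libraries by median ratios gave 110 above and 48 below, and quantile normalization 86 above and 58 below. The median of the mean FPKM was 15.0 in the 208 higher genes, beside 7.30 in the 77 lower genes and 9.76 in all tested genes.

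These counts also moved with single libraries. Without WIN replicate 3 there were 2986 genes separated in the same direction, 1438 higher and 1548 lower, and 86 in opposite directions; the 6 cocaine-treated libraries then lay above the remaining 5 in 904 genes and below them in 735. Without WIN+cocaine replicate 2 the same-direction count was 672, with 128 opposite, and without WIN+cocaine replicate 3 it was 677, with 92 opposite. Fewer libraries make separation easier, so each such count exceeds 285 in part by construction. The closest balance came without WIN+cocaine replicate 1, with 372 in the same and 254 in opposite directions, and without WIN replicate 1, with 324 and 246. Leaving out any 1 of the other 7 libraries gave 329 to 406 in the same direction and 71 to 128 in opposite directions.

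**Figure D4:**
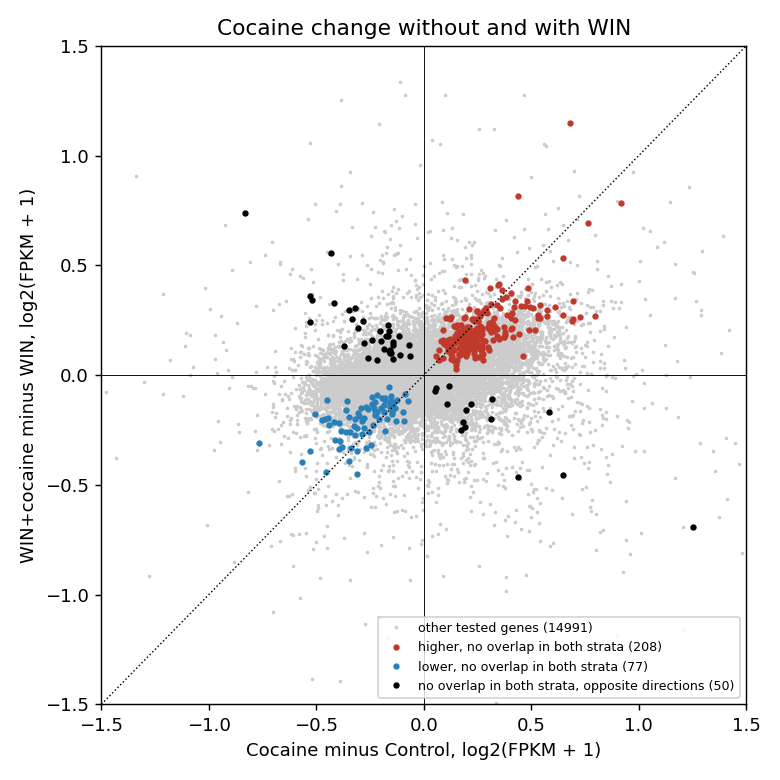
Log2(FPKM + 1) change with cocaine in animals without WIN (horizontal axis, cocaine minus control) and with WIN (vertical axis, WIN+cocaine minus WIN) for each tested gene; 24 genes lie beyond the axes. Red and blue mark the 208 higher and 77 lower genes separated under both histories, black the 50 separated in opposite directions, and the dotted diagonal equal change; the grey cloud is wider along the horizontal axis.

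Size differed between the histories. The SD of the log2 change over all tested genes was 0.17 with WIN and 0.28 without. Of all 15326 tested genes, 9716 (63.4%) changed with the same sign under both histories. With a single library omitted, this share was lowest in the absence of WIN replicate 1, at 52.2%. It was highest in the absence of WIN replicate 3, at 71.2%. The share expected of unrelated histories was not computed. Among the 3637 genes at an unadjusted p under 0.05 in the main effect, 3618 had the same sign. The choice on their mean largely fixes that number. In 89.0% of these 3618 the change without WIN was the larger, beside 75.9% among all tested genes of equal sign. The higher genes had a median log2 change of 0.16 with WIN and 0.32 without, and the lower genes -0.12 with WIN and -0.33 without. These genes were chosen on the mean of both changes, and the change without WIN had the wider spread. That choice favours genes with the larger change without WIN, so the 89.0% and these medians partly describe it. Without WIN replicate 3 the SD with WIN was 0.23, and the share with the larger change without WIN was 76.5%. The test of the difference is the interaction, and it called 0 genes in limma, with a smallest adjusted p of 0.539, and 0 in voom; 1382 genes (9.02%) had an unadjusted p under 0.05. That last count ran from 596 without control replicate 2 and 789 without WIN replicate 3 to 2062 without WIN replicate 1.

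Genes picked under one history can be read in the libraries of the other, which entered the choice only through the estimate of spread shared by all 12. Of the 500 genes most clearly higher with cocaine in WIN animals, 406 (81.2%) were also higher in cocaine than in control, beside 47.1% of all tested genes. Of the 500 most clearly lower, 353 (70.6%) were lower, beside 52.9% of all genes. Their median log2 differences between cocaine and control were 0.21 and -0.11, beside 0.26 and -0.26 in the WIN animals that chose them. At an unadjusted p under 0.05 in limma, 246 of the 500 higher genes were higher in cocaine than in control and 17 lower; of the 500 lower genes, 125 were lower and 11 higher. Read the other way, of the 500 genes most clearly higher in cocaine than in control, 93.2% were also higher in WIN+cocaine than in WIN, beside 51.3% of all tested genes. Of the 500 most clearly lower, 411 (82.2%) were lower, beside 48.7% of all genes. Their median differences between WIN+cocaine and WIN were smaller than in the animals that chose them, at 0.15 beside 0.47 and at -0.07 beside -0.43. Of the 500 higher genes, 66 were higher in WIN+cocaine than in WIN at that p and 1 was lower; of the 500 lower genes, 11 were lower and 3 higher.

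Library by library, the genes picked in WIN animals separated cocaine from control. Around the midpoint of these groups, the 500 higher genes had median deviations of 0.08, 0.13 and 0.10 in cocaine replicates 1 to 3, against -0.11, -0.13 and -0.09 in control replicates 1 to 3. The 500 lower genes stood at -0.02, -0.11 and -0.06 in cocaine, against 0.05, 0.08 and 0.05 in control. In both sets the 3 cocaine libraries and the 3 control libraries did not overlap.

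Read the other way the order was mixed. The 500 genes higher in cocaine than in control had median deviations of 0.18, 0.01 and 0.02 in WIN+cocaine replicates 1 to 3, against -0.20, -0.13 and 0.11 in WIN replicates 1 to 3. The 500 lower genes stood at -0.11, 0.01 and -0.01 in WIN+cocaine, against 0.17, 0.10 and -0.16 in WIN. WIN replicate 3 lay beyond WIN+cocaine replicates 2 and 3 in both sets, and beyond all 3 in the lower set, whereas WIN replicates 1 and 2 lay on the control side.

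These readings turned on single WIN libraries. Without WIN replicate 3, 488 of the 500 higher and 462 of the 500 lower genes picked in WIN animals had the same sign in cocaine against control. Without WIN replicate 1 the numbers were 283 and 255, or 56.6% beside 47.1% of all genes for the higher set and 51.0% beside 52.9% for the lower set, with medians of 0.05 and -0.00 on the log2 scale. Without WIN+cocaine replicate 1 they were 304 and 297, and without WIN replicate 2, 344 and 314. Without any 1 of the other 8 libraries they ran from 396 to 417 higher and from 327 to 375 lower.

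The genes picked without WIN turned on the same libraries. When WIN replicate 3 was left out, 489 of the 500 higher and 492 of the 500 lower genes had the same sign in WIN+cocaine against WIN, and 353 and 241 of them had an unadjusted p under 0.05 in limma. Without WIN replicate 1, 378 (75.6%) and 238 (47.6%) had the same sign, beside 53.8% and 46.2% of all tested genes. At that p, 13 and 4 had the same sign and 4 and 5 the opposite sign. The median difference of the lower set was then 0.01, not below 0. Without WIN+cocaine replicate 1 the same sign was found in 409 and 301, and without WIN replicate 2 in 450 and 338. Leaving out any 1 of the other 8 libraries gave 406 to 471 higher and 369 to 433 lower genes of the same sign, with 38 to 99 and 6 to 24 of them at that p.

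**Figure D5:**
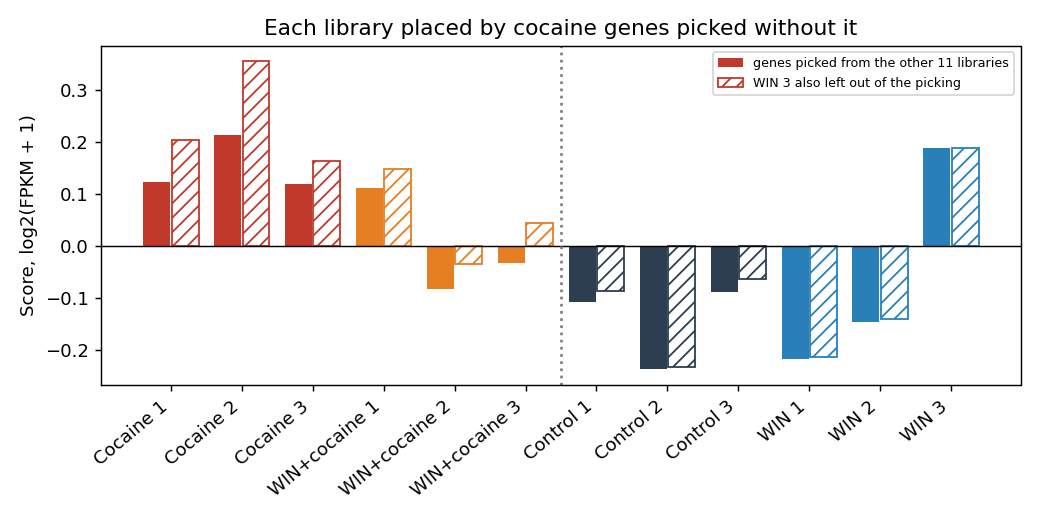
Score of each library (vertical axis, log2(FPKM + 1) scale, 0 at the midpoint of the group means) from 500 higher and 500 lower genes picked in the other libraries, with solid bars for picking from the other 11 and hatched bars where WIN replicate 3 was also left out of the picking. Cocaine-treated libraries stand left of the dotted line; 9 of 12 solid bars lie on the side of their label, and WIN replicate 3 stands at 0.19.

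When each library was placed by genes picked without it, 4 of the 6 cocaine-treated libraries and 5 of the 6 others lay on the side of their label. The cocaine libraries stood at 0.12, 0.21 and 0.12. Of the WIN+cocaine libraries, replicate 1 stood at 0.11, while replicates 2 and 3 lay slightly on the other side, at -0.08 and -0.03. With WIN replicate 3 left out of the picking and of the group means, WIN+cocaine replicate 3 moved to 0.04 and replicate 2 to -0.03, and 10 of 12 libraries lay on the side of their label.

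The share of genes that differed followed their level. Genes were split into 5 classes of equal number by mean FPKM. In the lowest class, up to 2.53, 5.28% were higher and 4.17% lower at an unadjusted p under 0.05, and in the highest, above 32.9, 20.5% were higher and 14.2% lower. Read depth rises with level, and its part in the result was not tested. Length was read in the 11567 tested genes whose length could be recovered exactly. In the shortest of 5 classes, up to 1289 bp, 13.4% were higher and 11.1% lower, and in the longest, above 3715 bp, 13.5% were higher and 12.9% lower. The median length was 2190 bp in the higher genes and 2285 bp in the lower genes, beside 2204 bp in all genes of known length. The median log2 difference was lower in longer genes in animals without WIN, at 0.01, -0.01, -0.02, -0.05 and -0.07 over the 5 classes, short to long; with WIN it was -0.02, 0.00, 0.02, 0.01 and 0.01. By library, the longest class deviated from the mean of the 12 libraries by a median of -0.06, -0.02 and -0.03 in cocaine and -0.04, 0.03 and 0.03 in WIN+cocaine, against -0.03, 0.07 and 0.04 in control and -0.00, 0.00 and -0.01 in WIN. Control replicate 1 lay among the cocaine libraries in this measure. The labels give no measure of RNA quality, and the part of gene length in the cocaine differences was not tested.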

How the data were processed

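RNA was measured in 12 prefrontal cortex libraries, 3 for each of cocaine, WIN+cocaine, control and WIN, grouped by their titles. The authors deposited FPKM values; per the labels' protocols, a stranded kit was used with 1 µg of total RNA, and the submitters' processing notes name HISAT2, HTSeq and DESeq. The sources used here give no genome build, annotation or strand setting; values of antisense partners and near-identical copies are therefore uncertain. Whole reads were recovered from the FPKM steps in Python 3.11.15 (tolerance 0.001 reads; 0 genes failed). Of 11615 genes with over 200 reads in a library, 99.98% had an implied length within 0.03 bp of a whole number. The median over tested genes and libraries was 481 reads. No pair of libraries agreed within sampling noise (chi-square per degree of freedom from 7.59 to 58.3 over 66 pairs).

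Values of log2(FPKM + 1) were fitted in limma 3.58.1 (R 4.3.3) with terms for WIN and cocaine. The prior variance followed the mean level, and p-values were adjusted by Benjamini-Hochberg over all genes with FPKM of at least 1 in at least 3 libraries. Changes under each WIN history and the interaction came from a fit of the 4 group means. Calls were made where the adjusted p was under 0.05. Fold changes on this scale understate changes of low genes. The procedure was tested on simulated data, and no outcome of that test is reported or relied on here.

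Members, lists and tests were chosen with earlier results of these data known. The rule for named genes took those with the smallest p in each direction, with a mean FPKM of at least 1 and equal sign under both WIN histories. It was limited to 2 IDs in each direction, since 0 of the IDs matched a reference table of 47357 genes (GRCr8). The genes picked under 1 history and the placing of each library were added after the data were examined. Alternatives were another pseudocount (0.1), no filter, library weights, median ratio and quantile scaling, a constant prior, voom, a replicate block, a 4-group model, a threshold of 0.10 and leaving out each library.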

Additional observations from a re-analysis of the deposited data

Results flagged for a closer look

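One value stood far from the rest of its 6 libraries. Among the libraries without cocaine, the score of WIN replicate 3, from genes picked in the other 11 libraries, was 0.187, on the cocaine side, while the other 5 lay from -0.24 to -0.09. Of 12 groups of 6 values checked in this way this was the only one to stand out, and chance singles out about 1 group in 20. The groups of 6 join libraries with and without WIN.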

How the results depend on the processing

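The count of genes called in the cocaine main effect was 0 in 19 of 22 alternatives. It was 3879 with library weights, 317 at a threshold of 0.10, and from 0 to 3567 with 1 library left out. The count that also had equal sign under both WIN histories was 3874 with weights, 317 at 0.10 and from 0 to 3567 with 1 library left out. In both, the high end was without WIN replicate 3 and the other 11 gave 0. The 317 rest on p-values at the edge: with 1 library left out that count was 0 for 9 of the 12 libraries, 979 without WIN+cocaine replicate 3, 1527 without WIN+cocaine replicate 2 and 5042 without WIN replicate 3. With all 12 libraries it was 0 with the other pseudocount, no filter, either scaling, a constant prior or the replicate block. It was 685 with voom, 1358 with the 4-group model and 5400 with library weights. Genes at an unadjusted p under 0.05 numbered 6047 with weights and from 2424 to 5741 with 1 library left out. Genes separated in the same direction under both histories numbered 257 with median ratios, 242 with quantile normalization and from 324 to 2986 with 1 library left out; fewer libraries make separation easier. Cocaine without WIN gave 2083 genes with weights, 3 with the replicate block, 3037 at 0.10 and from 0 to 2772 with 1 library left out; the 2772 came without WIN replicate 3, which enters that contrast only through the shared estimate of spread. The interaction gave from 0 to 1 with 1 library left out (1 without control replicate 1 and 1 without control replicate 2), and cocaine with WIN gave 0 throughout. WIN replicate 3 had a library weight of 0.26, and the cause of its effect on these counts was not tested. The 4 named genes kept their direction in all 22 alternatives, with adjusted p from 0.00403 to 0.244 in limma.

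With the replicate number as a block the main effect called 0 genes. Numbers gave little sign of pairing: correlations of deviations between libraries of equal number ran from -0.281 to 0.196, and 4 of 12 libraries were closest to one of their own number. Counting error is widest for genes with few reads; what limits the number of calls was not tested.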

Other observations

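Of the 15326 tested genes, 1278 had IDs outside the Ensembl series. In these, 5.56% were higher and 8.92% lower with cocaine at an unadjusted p under 0.05 in limma, against 13.9% higher and 10.7% lower among the 14048 genes with Ensembl IDs. Their median FPKM was 1.98, against 10.97 for Ensembl IDs, and the part of level in this difference was not tested. Over all 1278 the median log2 difference was 0.00 with WIN and -0.05 without. Of the genes separated in the same direction under both WIN histories, 9 of the 208 higher and 8 of the 77 lower had such IDs.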
